A study of Capra hircus with 6 samples.

Results

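The genes described here are 38 members of the integrated stress response and of the machinery that charges tRNAs, taken from 16285 genes measured by RNA sequencing. They were chosen by symbol: 18 genes of the ATF4 pathway and 20 cytosolic aminoacyl-tRNA synthetases, all of which had a row in the deposited tables. The samples were mesenchymal stem cells from goat (Capra hircus) fat, which grow as fibroblast-like stroma and can be turned towards adipocytes. There were 3 libraries labelled YAP, with the genotype given as overexpressing YAP, and 3 Control libraries, with the genotype given as WT. The series' design text names the engineered cells OE-TAZ, whereas the sample labels say YAP, and the labels are followed here. The labels of both groups recorded a treatment for adipogenic differentiation, and they did not name the vector, the clone or the number of animals behind a library. Nothing in the labels says that replicates came from separate cultures, and the p-values therefore speak of the spread among 6 libraries, part of which may be technical.

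ATF4 is the transcription factor at the centre of the integrated stress response. Kinases that sense amino acid shortage, unfolded protein, double-stranded RNA or haem deficiency phosphorylate the initiation factor eIF2, which slows general translation and favours translation of the ATF4 message. ATF4 protein then switches on genes for amino acid synthesis and import, for the serine and one-carbon pathway, for several aminoacyl-tRNA synthetases and, under lasting stress, for factors such as DDIT3 (CHOP). Aminoacyl-tRNA synthetases join each amino acid to its tRNA and are needed in every cell. Much of the control of ATF4 is translational, and these data hold RNA levels only.

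Levels are FPKM, fragment counts scaled to the length of the gene model and to the total counted in the library, given as mean ± SD with n = 3 per group. Log2 changes are YAP minus Control on the log2(FPKM + 1) scale, which understates changes of genes with low values. Genes were called at a limma adjusted p under 0.05, with p adjusted over all 10761 genes tested. Of those, 35.9% were called, 12.9% as higher in YAP and 23.0% as lower, and the median log2 change over all tested genes was -0.10. Of all calls in the deposited FPKM 64.0% were lower, and after median-of-ratios scaling 47.0% were (1702 higher and 1507 lower).

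The gene named in the labels did not stand apart. YAP1 had 28.4, 25.6 and 28.2 FPKM in the libraries labelled YAP, against 25.8, 27.0 and 28.9 FPKM in Control libraries. The groups overlapped, with a log2 change of 0.01 (95% confidence interval -0.17 to 0.19, limma adjusted p = 0.95; exact two-sided permutation p = 1, where the smallest p this design allows is 0.1). Its sign turned when YAP replicate 1 (-0.02), YAP replicate 3 (-0.01) or Control replicate 1 (-0.03) was left out. Every direction below is therefore that of the libraries labelled YAP, whatever the level of YAP1. Its relative WWTR1, the gene for TAZ, averaged 21.4 ± 1.98 FPKM in the libraries labelled YAP and 32.0 ± 3.38 FPKM in Control libraries (limma adjusted p = 0.0013). Library totals implied by the FPKM steps were 32593381 to 37131016 fragments per library labelled YAP and 33871398 to 34967991 per Control library. Summed FPKM of 10 stromal markers was 19619 to 20789 in the libraries labelled YAP and 12211 to 13531 in Control libraries, a sum carried by COL1A1, COL3A1, COL1A2 and DCN. In that list 7 genes were called higher and 2 lower, beside 12.9% higher and 23.0% lower among all tested genes. The lower ones were the surface markers ENG (80.8 ± 4.98 FPKM in the libraries labelled YAP and 150 ± 14.8 FPKM in Control libraries) and NT5E (127 ± 6.38 FPKM in the libraries labelled YAP and 170 ± 10.9 FPKM in Control libraries). The leukocyte markers PTPRC, CD74 and AIF1 had at most 1 read in any library, and TYROBP at most 3. CD3E had 7 to 32 reads, with means of 0.179 FPKM in the libraries labelled YAP and 0.598 FPKM in Control libraries. The leukocyte list, led by LAPTM5 and CD68, summed to 12.5 ± 1.08 FPKM in the libraries labelled YAP and 14.6 ± 0.267 FPKM in Control libraries. Summed FPKM of the adipocyte list, nearly all of it from CIDEC, averaged 9.93 ± 0.979 in the libraries labelled YAP and 18.6 ± 1.31 in Control libraries. The adipocyte genes PPARG and ADIPOQ were close to absent in both groups, with 2 to 4 and 2 to 17 reads per library. LPL and LEP had at most 4 and 1 reads, PLIN1 had 12 to 27, and FABP4 had no row. In such bulk samples fewer cells of a type and less RNA per cell cannot be told apart, and the part of cell make-up in the results below was not tested.

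Of the 18 ATF4 pathway genes, 7 rose, 1 fell and 10 were not past the threshold, beside 12.9% higher and 23.0% lower among all tested genes. Of the 20 synthetases, 0 rose, 6 fell and 14 were not past the threshold. At an unadjusted p under 0.05, 0 synthetases were higher and 8 were lower, with EPRS and LARS added (limma adjusted p = 0.052 and 0.059). ATF4 pathway genes at that p numbered 9 higher and 1 lower, and the share of all tested genes was not counted. With limma-voom on recovered reads, 0 synthetases were called higher and 7 lower, beside 1403 higher and 2441 lower among all 10761 tested genes. The median log2 change was 0.27 over the ATF4 pathway genes and -0.16 over the synthetases, beside -0.10 over all tested genes. All 38 members had at least 1 FPKM in every library, so none entered the test through 1 group alone. Groups did not overlap for 7 ATF4 pathway genes with the libraries labelled YAP above and 1 with them below, and for 1 synthetase above and 8 below, where 48.3% of all tested genes did not overlap, 16.7% above and 31.6% below. No test of the difference between the lists was made, since their members were chosen with earlier results of these data known.

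**Figure D1:**
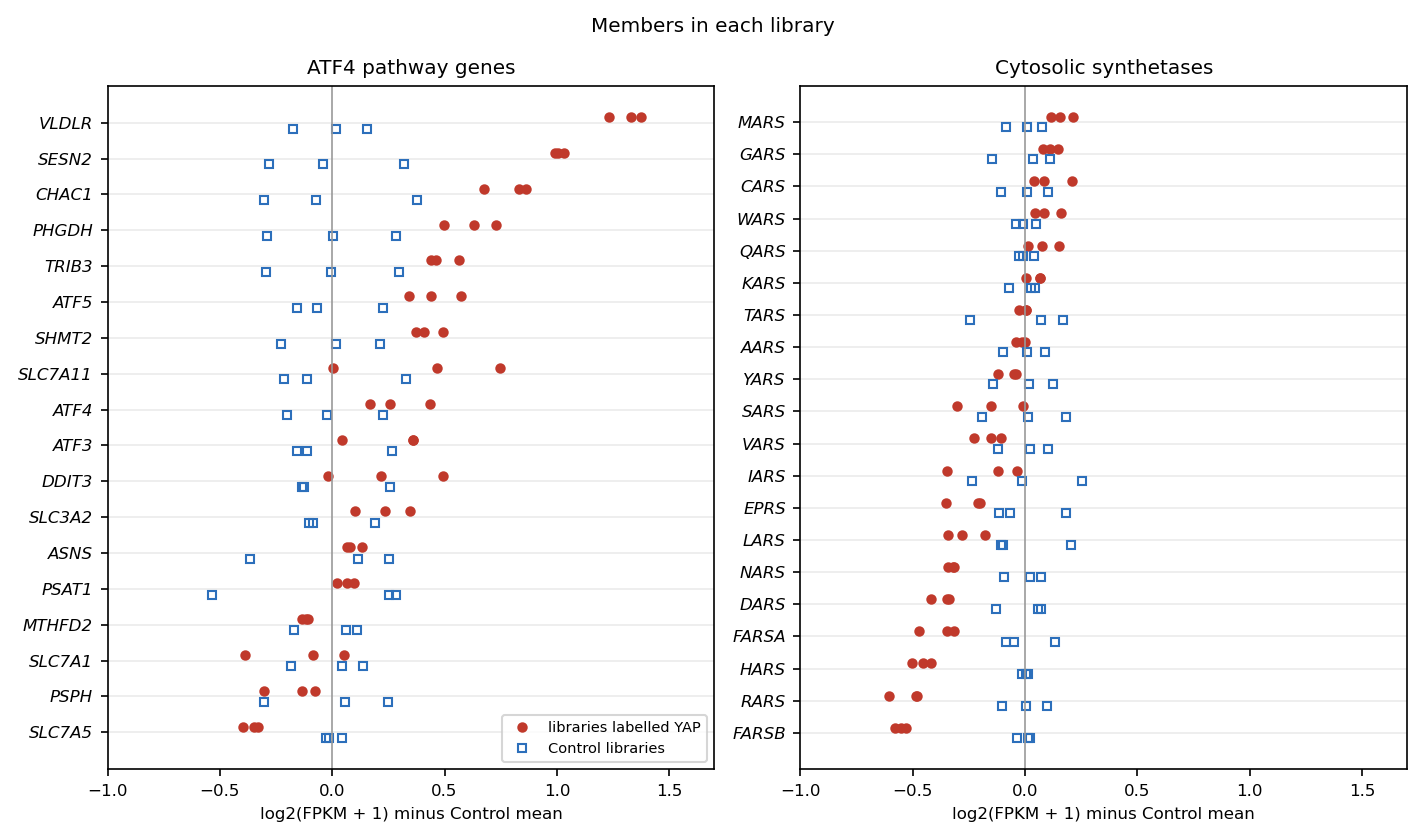
Each row is a gene and each point a library, as log2(FPKM + 1) minus the Control mean of that gene; filled circles are the 3 libraries labelled YAP and open squares the 3 Control libraries. VLDLR, SESN2 and CHAC1 lie apart to the right, whereas FARSB, RARS and HARS lie apart to the left.

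Of the 4 transcription factors, 1 rose. ATF4 was the most abundant transcript of the set, above 98.5% of tested genes. It had 491, 555 and 461 FPKM in the libraries labelled YAP, against 357, 480 and 404 FPKM in Control libraries. The highest Control value lay inside the range of the other group, and the log2 change of ATF4 missed the threshold (0.29, SE 0.11, 95% confidence interval 0.04 to 0.53, limma adjusted p = 0.07). It did pass with quantile normalization (0.35, limma adjusted p = 0.015), with median-of-ratios scaling (0.37, limma adjusted p = 0.038) and without Control replicate 2 (0.40, limma adjusted p = 0.014). Without Control replicate 1 the ATF4 change was 0.18 (limma adjusted p = 0.25), and without YAP replicate 2 it was 0.21 (limma adjusted p = 0.18). Over all alternatives its adjusted p ran from 0.0028 to 0.25.

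ATF5, a close relative of ATF4 that is itself translated preferentially under stress, was the 1 factor that rose. ATF5 had 102, 112 and 95.2 FPKM in the libraries labelled YAP, against 67.1, 87.8 and 71.5 FPKM in Control libraries. The groups did not overlap (log2 change 0.45, SE 0.10, limma adjusted p = 0.0068). ATF3, a stress-induced repressor, had 10.3, 10.3 and 8.07 FPKM in the libraries labelled YAP and 6.90, 9.58 and 7.15 FPKM in Control libraries (log2 change 0.26, SE 0.13, limma adjusted p = 0.14). It passed without Control replicate 2 (0.39, limma adjusted p = 0.027), and without Control replicate 1 it was 0.18 (limma adjusted p = 0.38). DDIT3, which encodes the pro-apoptotic factor CHOP, had 16.1, 19.7 and 13.5 FPKM in the libraries labelled YAP and 12.5, 16.6 and 12.4 FPKM in Control libraries. For both genes the groups overlapped, and the DDIT3 change was 0.23 (SE 0.14, limma adjusted p = 0.22). Single libraries moved the DDIT3 change widely: it was 0.10 without YAP replicate 2 and 0.36 without either YAP replicate 3 or Control replicate 2.

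The stress effectors downstream of ATF4 held the 3 largest changes of the set, and all 4 of them rose. VLDLR, a lipoprotein receptor that ATF4 induces and that takes up triglyceride-rich particles, had 11.3, 10.5 and 11.7 FPKM in the libraries labelled YAP, against 3.34, 3.95 and 4.45 FPKM in Control libraries. It was 2.85-fold higher (log2 change 1.31, SE 0.10, limma adjusted p = 2.7e-06), on 812 to 3018 reads per library. Sestrin 2 (SESN2) is a leucine sensor that holds back the growth kinase mTORC1. SESN2 stood at 22.7, 22.1 and 22.3 FPKM in the libraries labelled YAP, which were almost alike, against a wider spread of 8.55, 13.5 and 10.3 FPKM in Control libraries (2.07-fold, log2 change 1.01, SE 0.13, limma adjusted p = 0.00014).

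CHAC1, an enzyme that degrades glutathione and a sensitive marker of ATF4 activity, had 6.22, 6.39 and 5.48 FPKM in the libraries labelled YAP, against 2.29, 4.27 and 2.87 FPKM in Control libraries. That was a 1.92-fold difference between means (log2 change 0.79, SE 0.15, limma adjusted p = 0.002). TRIB3, a pseudokinase that binds ATF4 and dampens it, had 13.9, 12.9 and 12.7 FPKM in the libraries labelled YAP, against 7.23, 11.4 and 9.06 FPKM in Control libraries. The groups of both genes were separate, but the TRIB3 change (0.49, SE 0.13, limma adjusted p = 0.013) was the smaller. It lost its call without YAP replicate 1 (0.45, limma adjusted p = 0.053) and with no filter on low values (0.49, limma adjusted p = 0.055).

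Serine is made from a glycolytic intermediate in 3 steps, and the gene of 1 step passed the threshold. PHGDH, the first and committing step, had 215, 230 and 196 FPKM in the libraries labelled YAP, against 113, 169 and 139 FPKM in Control libraries. It rose 1.53-fold without overlap (log2 change 0.62, SE 0.13, limma adjusted p = 0.0033). PSAT1, the second step, had 194, 190 and 184 FPKM in the libraries labelled YAP, against 125, 221 and 216 FPKM in Control libraries. Here Control replicate 1 stood far below the other Control libraries, and the PSAT1 change of 0.06 (limma adjusted p = 0.80) became -0.20 (limma adjusted p = 0.065) without it. PSPH, the last step, had 47.2, 49.1 and 41.9 FPKM in the libraries labelled YAP, against 41.9, 61.8 and 54.0 FPKM in Control libraries (log2 change -0.17, limma adjusted p = 0.31). Without Control replicate 1 it was past the threshold and lower (-0.32, limma adjusted p = 0.037), and without Control replicate 2 it was -0.05 (limma adjusted p = 0.78).

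SHMT2, which passes the serine carbon to folate in mitochondria, rose. It had 98.3, 104 and 95.8 FPKM in the libraries labelled YAP, against 62.8, 85.6 and 74.5 FPKM in Control libraries (log2 change 0.43, SE 0.10, limma adjusted p = 0.0086). MTHFD2, the next mitochondrial folate enzyme, averaged 30.7 ± 0.316 FPKM in the libraries labelled YAP and 33.6 ± 3.50 FPKM in Control libraries (log2 change -0.12, limma adjusted p = 0.31). ASNS, asparagine synthetase and a textbook ATF4 target, averaged 54.2 ± 1.33 FPKM in the libraries labelled YAP and 51.6 ± 11.1 FPKM in Control libraries. Its log2 change of 0.09 (95% confidence interval -0.20 to 0.38, limma adjusted p = 0.60) turned to -0.09 (limma adjusted p = 0.40) without Control replicate 1.

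The amino acid transporters held the 1 ATF4 pathway gene that fell. SLC7A5 encodes LAT1, the light chain of the main importer of large neutral amino acids such as leucine. SLC7A5 had 74.3, 71.7 and 75.2 FPKM in the libraries labelled YAP, against 93.0, 97.8 and 93.8 FPKM in Control libraries. Both groups were tight and far apart (log2 change -0.36, SE 0.07, limma adjusted p = 0.0025), and the call held in all 12 alternatives. SLC3A2, the heavy chain that carries LAT1 to the membrane, averaged 124 ± 10.3 FPKM in the libraries labelled YAP and 106 ± 12.6 FPKM in Control libraries. Its change of 0.23 (SE 0.10, limma adjusted p = 0.089) missed the threshold. It passed with quantile normalization (0.29, limma adjusted p = 0.020), with median-of-ratios scaling (0.32, limma adjusted p = 0.041) and without Control replicate 2 (0.33, limma adjusted p = 0.022). The FPKM ratio of light to heavy chain, a description chosen after the levels were seen, was 0.597, 0.536 and 0.663 in the libraries labelled YAP and 0.940, 0.813 and 0.958 in Control libraries, without overlap.

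SLC7A11, the cystine importer that shares the same heavy chain, was the least abundant member. It had 2.60, 1.61 and 3.38 FPKM in the libraries labelled YAP, against 1.25, 1.41 and 2.27 FPKM in Control libraries. The libraries of each group differed widely, and the change of 0.41 (SE 0.18, limma adjusted p = 0.11) passed without YAP replicate 2 (0.61, limma adjusted p = 0.0086) or Control replicate 3 (0.57, limma adjusted p = 0.033). Without YAP replicate 3 it was 0.23 (limma adjusted p = 0.31). SLC7A1, an importer of arginine and lysine, averaged 12.4 ± 2.06 FPKM in the libraries labelled YAP and 13.7 ± 1.67 FPKM in Control libraries (log2 change -0.14, limma adjusted p = 0.41).

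**Figure D2:**
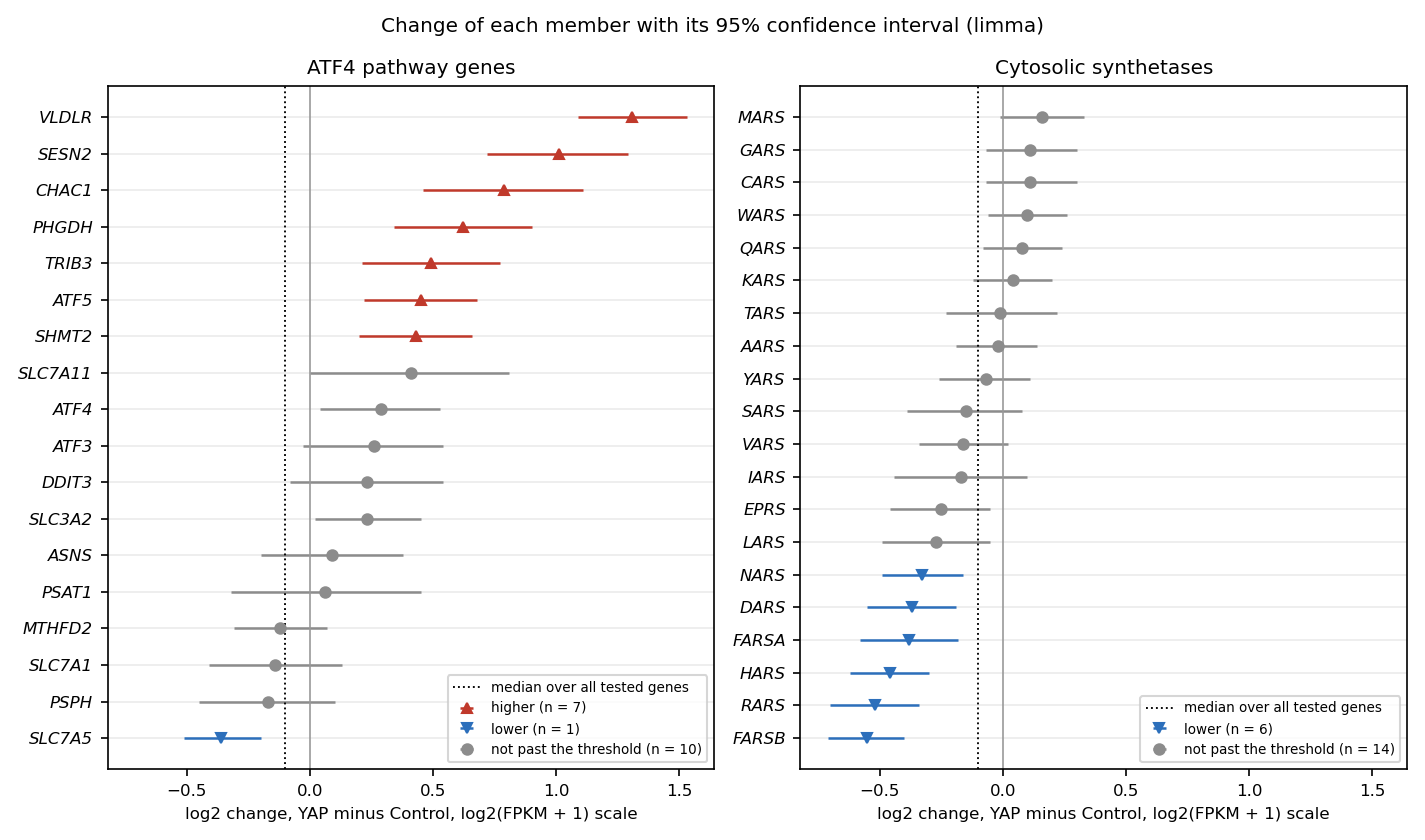
Log2 change, YAP minus Control, of each member with its 95% confidence interval from limma; triangles mark genes past the threshold and the dotted line the median over all tested genes (-0.10). Among ATF4 pathway genes 7 are higher and 1 lower, and among synthetases 6 are lower and none is higher.

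The synthetases were abundant in both groups, from 12.1 FPKM for FARSA to 181 FPKM for SARS in the libraries labelled YAP and from 16.1 to 201 FPKM for the same genes in Control libraries. The order at the top was the same in both groups: SARS (seryl), KARS (lysyl), GARS (glycyl), AARS (alanyl) and WARS (tryptophanyl). Each synthetase value rested on 1603 to 14779 reads. None of these 5 was past the threshold, and their log2 changes lay between -0.15 for SARS and 0.11 for GARS. Each of the 3 KARS values exceeded each GARS value in the libraries labelled YAP (139 to 145 against 129 to 135 FPKM), whereas in Control libraries the ranges met (132 to 143 and 110 to 132 FPKM). NARS, QARS, MARS and EPRS, at means of 56.6, 56.4, 54.8 and 53.9 FPKM in the libraries labelled YAP, did not separate beyond their spread. FARSB stood at place 14 of 20 in the libraries labelled YAP, against place 9 in Control libraries.

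Both subunits of phenylalanyl-tRNA synthetase fell. FARSB, the beta subunit, had 37.6, 39.0 and 38.4 FPKM in the libraries labelled YAP, against 57.7, 55.3 and 57.2 FPKM in Control libraries. The spread within each group was small beside the gap between them, and the level was 1.48-fold lower (log2 change -0.55, SE 0.07, limma adjusted p = 0.00014). FARSA, the alpha subunit, had 12.7, 12.4 and 11.3 FPKM in the libraries labelled YAP, against 17.7, 15.5 and 15.1 FPKM in Control libraries (log2 change -0.38, SE 0.09, limma adjusted p = 0.0075). The ratio of FARSA to FARSB was 0.316 ± 0.0227 in the libraries labelled YAP and 0.283 ± 0.0222 in Control libraries, with overlapping values. The enzyme holds equal numbers of the subunits, and FARSB RNA exceeded FARSA RNA per length in all 6 libraries. That comparison depends on the gene models, whose recovered lengths were 4504 bases for FARSA and 1991 for FARSB. Reads per library numbered 1814 to 2790 for FARSA and 2532 to 4016 for FARSB. The part of model length in the ratio was not tested.

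RARS, which charges arginine, had 25.1, 22.9 and 25.0 FPKM in the libraries labelled YAP, against 35.5, 32.9 and 37.9 FPKM in Control libraries. That was 1.46-fold lower (log2 change -0.52, SE 0.08, limma adjusted p = 0.00059). HARS, which charges histidine, had 28.6, 29.3 and 27.6 FPKM in the libraries labelled YAP, against 39.6, 39.9 and 39.1 FPKM in Control libraries (log2 change -0.46, SE 0.07, limma adjusted p = 0.00056). The values of HARS were tight in both groups and far from overlapping.

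DARS, which charges aspartate, had 32.5, 34.4 and 34.1 FPKM in the libraries labelled YAP, against 39.9, 45.5 and 46.0 FPKM in Control libraries (log2 change -0.37, SE 0.08, limma adjusted p = 0.0048). NARS, which charges asparagine, had 55.9, 56.9 and 57.1 FPKM in the libraries labelled YAP, against 66.6, 75.0 and 72.4 FPKM in Control libraries (log2 change -0.33, SE 0.08, limma adjusted p = 0.0063). These were the smallest of the 6 falls together with FARSA, and each of the 6 stayed past the threshold in all 12 alternatives.

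Of the other 14 synthetases, 6 had a positive and 8 a negative log2 change, from -0.27 for LARS (leucyl) to 0.16 for MARS (methionyl). LARS averaged 15.7 ± 0.988 FPKM in the libraries labelled YAP and 19.1 ± 2.58 FPKM in Control libraries, without overlap, and its change was -0.16 without Control replicate 3. EPRS, a single chain that charges both glutamate and proline, averaged 53.9 ± 3.15 FPKM in the libraries labelled YAP and 64.6 ± 7.45 FPKM in Control libraries (log2 change -0.25). EPRS was past the threshold in 3 of 12 alternatives. These were the fit without Control replicate 1 (-0.31, limma adjusted p = 0.042), the replicate number as a block (-0.25, limma adjusted p = 0.01) and limma-voom (-0.26). Without Control replicate 3 the EPRS change was -0.16 (limma adjusted p = 0.16), and under the other scalings it was -0.17 and -0.20 (limma adjusted p = 0.20 and 0.17). MARS averaged 54.8 ± 1.86 FPKM in the libraries labelled YAP and 49.0 ± 2.75 FPKM in Control libraries, without overlap (limma adjusted p = 0.12). MARS was called higher with quantile normalization (0.22, limma adjusted p = 0.041) and with median-of-ratios scaling (0.25, limma adjusted p = 0.034). WARS, which in human cells is also induced by interferon, had 92.0, 84.7 and 87.2 FPKM in the libraries labelled YAP, against 79.8, 81.7 and 85.0 FPKM in Control libraries (log2 change 0.10, 95% confidence interval -0.06 to 0.26, limma adjusted p = 0.32). AARS and TARS (threonyl) differed least: AARS averaged 108 ± 1.71 FPKM in the libraries labelled YAP and 109 ± 7.32 FPKM in Control libraries, and the sign of both turned under both other scalings.

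**Figure D3:**
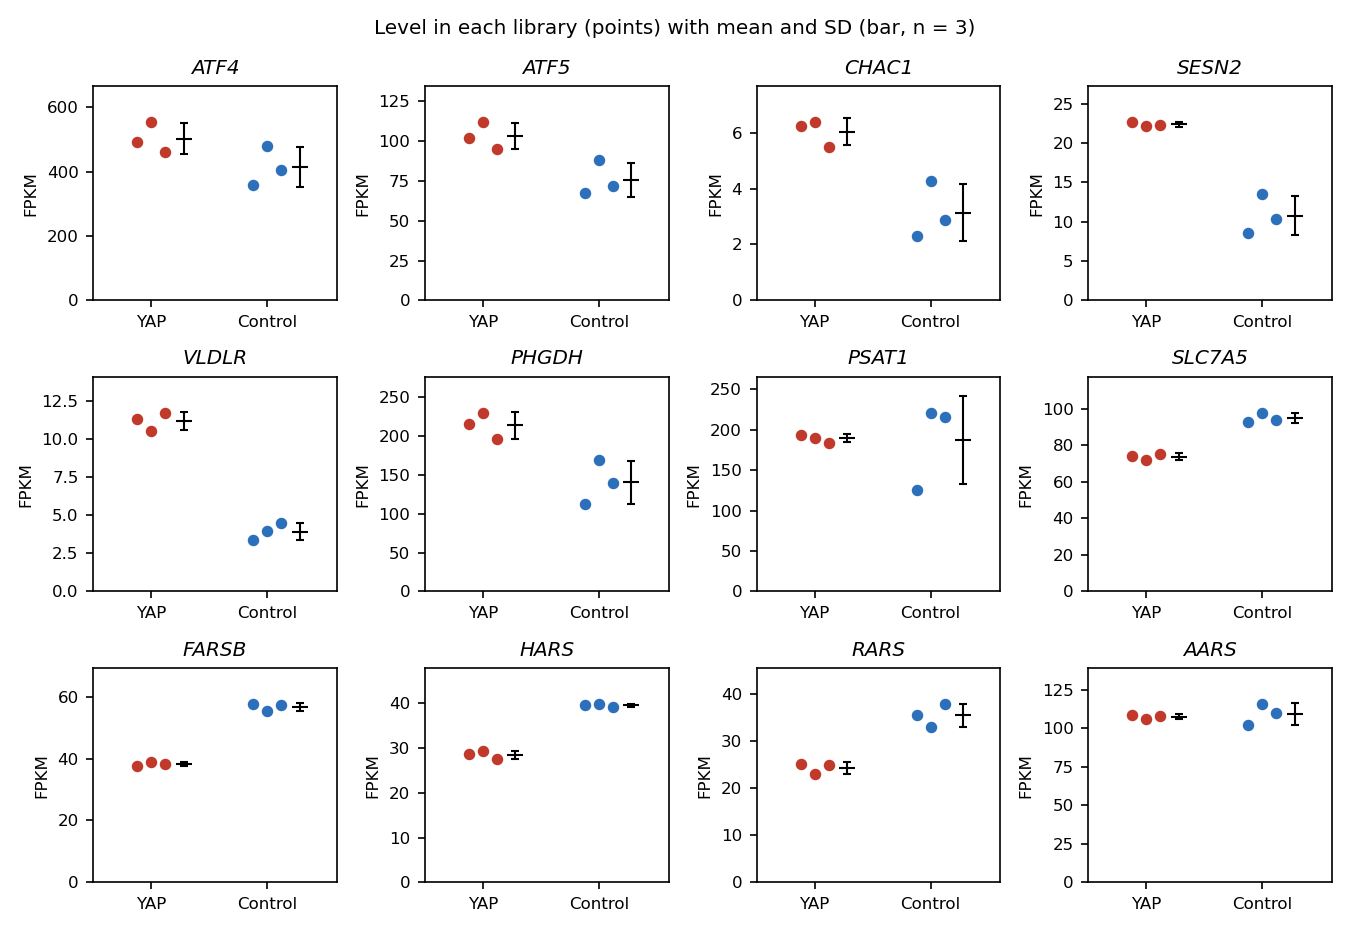
FPKM in each library for 12 members, with the mean and SD (n = 3) as a bar beside the points and each axis starting at 0. SESN2 and VLDLR stand apart upward, SLC7A5, FARSB, HARS and RARS downward, and PSAT1 shows the single low Control library.

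Synthetases were then set out by what they are known for. Of the 20, 13 were put, from general knowledge of the stress response in other mammals, in a list of synthetases induced with ATF4, and the other 7 (DARS, FARSA, FARSB, HARS, KARS, QARS and RARS) were not. The list was drawn up with earlier results of these data known, so the split is a description and was not tested. FARSA and FARSB, both among the 7, are subunits of 1 enzyme. Of the 13 in that list, 1 (NARS) fell and 12 were not past the threshold, with a median log2 change of -0.07. Of the 7 outside it, 5 fell and KARS and QARS were not past the threshold, with a median of -0.38. Among all tested genes 12.9% were called higher and 23.0% lower, with a median of -0.10. Per library, the median of those 7 relative to Control lay at -0.42, -0.35 and -0.48 in the libraries labelled YAP, and between 0.00 and 0.01 in Control libraries. The median of the 13 lay at -0.04, -0.05 and -0.03 in the libraries labelled YAP, and at -0.11, 0.07 and 0.04 in Control libraries.

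Membership of the multi-synthetase complex, a large assembly of several synthetases on 3 scaffold proteins, was set out likewise. Of 8 members 2 fell and of 12 non-members 4 fell, beside 23.0% called lower among all tested genes, with medians of -0.21 and -0.11. Of the scaffolds, AIMP2 averaged 23.4 ± 2.00 FPKM in the libraries labelled YAP and 32.3 ± 2.54 FPKM in Control libraries (log2 change -0.45, limma adjusted p = 0.003). AIMP1 was called lower at limma adjusted p = 0.047, a call lost in 8 of 12 alternatives, among them both other scalings (-0.17, limma adjusted p = 0.18; -0.18, limma adjusted p = 0.15) and the fits without YAP replicate 1 or 3 or Control replicate 2 or 3. By catalytic fold, 1 of 9 class I and 5 of 10 class II synthetases fell, EPRS holding both folds.

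The mitochondrial synthetases, separate genes for the organelle's own translation, had means of 1.03 to 19.6 FPKM in the libraries labelled YAP and 1.45 to 21.0 FPKM in Control libraries. Of these 17 genes 1 was called, beside 35.9% of all tested genes. SARS2 rose (8.83 ± 0.539 FPKM in the libraries labelled YAP and 6.31 ± 0.517 FPKM in Control libraries, log2 change 0.43, limma adjusted p = 0.004), whereas its cytosolic counterpart SARS was not past the threshold. The median log2 change of the 17 was -0.13, beside -0.10 over all tested genes. For RARS, HARS and NARS, which fell, the mitochondrial gene of matching name was not past the threshold: the log2 change was -0.13 for RARS2, 0.09 for HARS2 and -0.13 for NARS2.

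The ATF4 pathway genes ordered the Control libraries alike. Control replicate 1 was the lowest of its group in 15 of 18 ATF4 pathway genes and Control replicate 2 the highest in 15 of 18. The low place of Control replicate 1 was shared by the synthetases, where it was lowest in 14 of 20. Control replicate 2 was highest in 8 of 20 synthetases. The same shares over all tested genes were not counted. Relative to the Control mean, the median over the 18 genes was 0.31, 0.40 and 0.14 in the libraries labelled YAP, against -0.21, 0.24 and 0.00 in Control libraries. The median of YAP replicate 3 thus lay below that of Control replicate 2. The median coefficient of variation was 7.95% in the libraries labelled YAP and 18.1% in Control libraries for ATF4 pathway genes, and 3.79% and 7.54% for synthetases, beside 7.59% and 9.83% over all tested genes.

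Of 24 tested further genes known as ATF4 targets, STC2 and SLC7A3 reached 1 FPKM in the libraries labelled YAP alone and are left out of the counts. Among the other 22, 12 rose and 1 fell, beside 12.9% higher and 23.0% lower among all tested genes. The median log2 change of the 22 was 0.32, beside -0.10 over all tested genes, and 8 of the 12 rises held in all 12 alternatives. DDIT4, an mTORC1 inhibitor also known as a hypoxia target, averaged 108 ± 7.75 FPKM in the libraries labelled YAP and 21.5 ± 4.83 FPKM in Control libraries (5.01-fold, log2 change 2.29, limma adjusted p = 1.7e-07). The secreted glycoprotein gene STC2 averaged 1.81 ± 0.124 FPKM in the libraries labelled YAP and 0.148 ± 0.0781 FPKM in Control libraries, given as a description without a test. VEGFA, the angiogenic growth factor, averaged 148 ± 3.68 FPKM in the libraries labelled YAP and 91.8 ± 4.78 FPKM in Control libraries, and CEBPB, a partner factor of ATF4, 109 ± 13.8 FPKM in the libraries labelled YAP and 57.2 ± 9.62 FPKM in Control libraries. The fall was in ALDH18A1, an enzyme of proline synthesis (32.6 ± 1.34 FPKM in the libraries labelled YAP and 38.4 ± 2.65 FPKM in Control libraries, limma adjusted p = 0.046). That call was lost in 7 of 12 alternatives, among them median-of-ratios scaling (-0.14, limma adjusted p = 0.20) and the fits without any 1 library other than Control replicate 1 (-0.25 to -0.17).

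Upstream of ATF4, 1 of the 4 eIF2 kinases rose and 1 fell. EIF2AK2, the interferon-induced kinase PKR that responds to double-stranded RNA, had 12.9, 8.84 and 14.2 FPKM in the libraries labelled YAP, against 3.35, 2.78 and 4.26 FPKM in Control libraries (3.45-fold, log2 change 1.53, limma adjusted p = 3.3e-05). EIF2AK4, the amino acid sensor GCN2, fell, with 8.66 ± 0.437 FPKM in the libraries labelled YAP and 12.5 ± 1.83 FPKM in Control libraries (log2 change -0.47, limma adjusted p = 0.0053). The haem-regulated EIF2AK1 and the unfolded protein sensor EIF2AK3 (PERK) had changes of -0.03 and 0.05 and were not past the threshold (limma adjusted p = 0.81 and 0.68). Among 8 subunits of eIF2 and its exchange factor eIF2B, 5 fell, beside 23.0% called lower among all tested genes. Of these 5 falls, those of EIF2B1 and EIF2S1 held in all 12 alternatives. The falls of EIF2S2, EIF2S3 and EIF2B3 were lost under both other scalings and without YAP replicate 1 (limma adjusted p = 0.059, 0.12 and 0.15 without it). EIF2B1 averaged 16.3 ± 0.649 FPKM in the libraries labelled YAP and 22.4 ± 0.410 FPKM in Control libraries (log2 change -0.43, limma adjusted p = 0.0012), and EIF2S1, which carries the phosphorylated site, had 14.8, 15.8 and 17.5 FPKM in the libraries labelled YAP, against 21.5, 20.5 and 23.0 FPKM in Control libraries (-0.41, limma adjusted p = 0.0041).

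Of 10 tested further genes of one-carbon and glycine metabolism, GLDC reached 1 FPKM in Control libraries alone and is left out of the counts. Among the other 9, 3 rose and 3 fell, beside 12.9% higher and 23.0% lower among all tested genes. None of the 3 rises (ALDH1L2, AMT and SFXN1) held in all 12 alternatives. The falls included MTHFD1 (-0.39), which interconverts folates in the cytosol, and GCSH (-0.37) of the glycine cleavage system. The GCSH call was lost without YAP replicate 1 (-0.35, limma adjusted p = 0.056). MTHFD1 averaged 21.4 ± 0.684 FPKM in the libraries labelled YAP and 28.4 ± 1.21 FPKM in Control libraries (limma adjusted p = 0.0023).

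**Figure D4:**
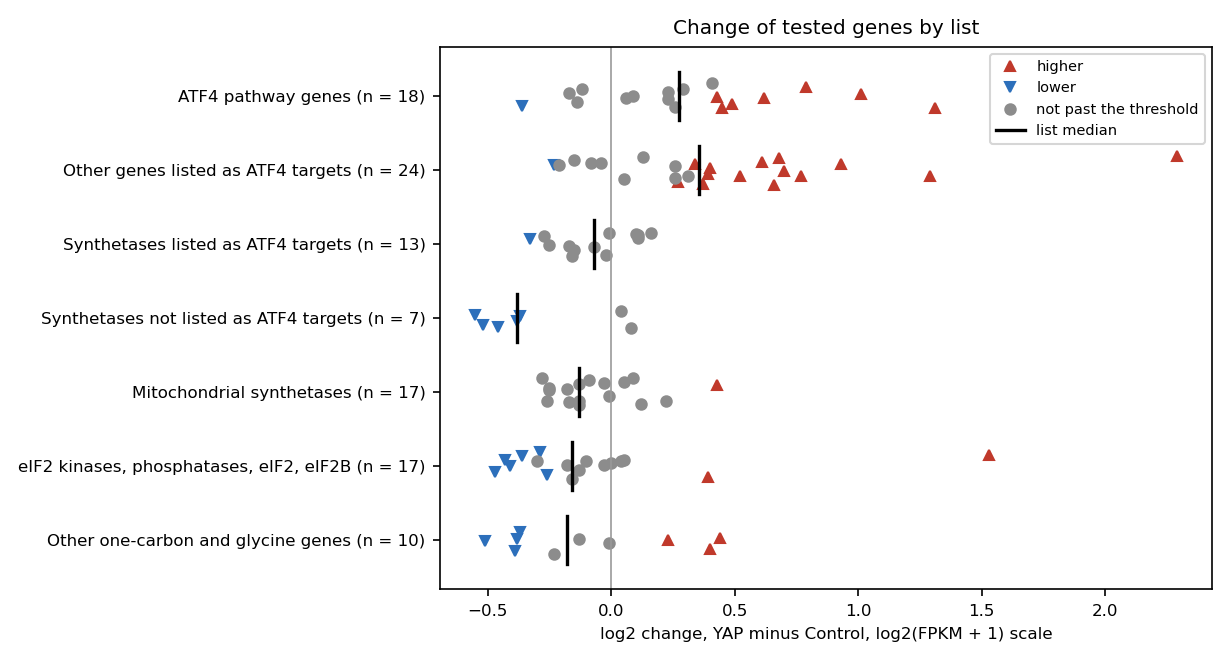
Log2 change, YAP minus Control, of every tested gene in 7 lists, with the list median as a vertical line; points are spread vertically only for legibility, and STC2, SLC7A3 and GLDC, tested through 1 group alone, are drawn too. The medians drawn are 0.27 for ATF4 pathway genes and 0.35 for all 24 other listed ATF4 targets, against -0.07 and -0.38 for synthetases inside and outside the ATF4 list.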

How the data were processed

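The authors deposited FPKM values for both groups, made with HISAT2, HTSeq and fastp per the submitters' processing notes, which list no version. The genome build is not stated for these files, nor are the annotation and strand setting. Groups and replicate numbers came from the sample titles. In the second table, 6 further sample columns match no title and were not used; 3 of them, named pcDNA, repeat the 3 Control columns value for value. That name is shared by a family of expression vectors, whereas the labels give the genotype as WT. All 38 members matched a RefSeq symbol of assembly ARS1.2, used for names only.

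Values were tested with limma 3.58.1 in R 4.3.3 as log2(FPKM + 1), with a variance trend, for genes reaching 1 FPKM in 3 or more libraries (10761 genes), two-sided, with Benjamini-Hochberg adjustment over all of them. Permutation tests used scipy 1.17.1. Whole reads were recovered from the FPKM steps for all 15958 genes above 0, within 0.05 reads; intervals and read numbers cover counting error or replicate spread only. The code was tested on simulated data with known changes. Members and lists were chosen with earlier results of these data known. Values in every library are given for ATF4, ATF3, ATF5, DDIT3 and the called members. From each further list the text takes up to 4 called genes with the smallest adjusted p, except items not reported here, and other genes were named with their values known. The alternatives tried were no filter, a pseudocount of 0.1, 2 other scalings, the replicate number as a block, limma-voom on the recovered reads and leaving out each library.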

Additional observations from a re-analysis of the deposited data

How the results depend on the processing

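Of the 14 members called, 13 kept their call in all 12 alternatives, the exception being TRIB3, and none changed direction. Of the 24 other members, 10 passed the threshold in at least 1 alternative and 5 changed sign in at least 1. After median-of-ratios scaling and after quantile normalization, 1 synthetase was higher (MARS). Under median-of-ratios scaling the sign turned for YARS (0.01), AARS (0.06) and TARS (0.08), and under quantile normalization for AARS (0.05) and TARS (0.07). Leaving out 1 library at a time, ASNS ran from -0.09 to 0.22 and PSAT1 from -0.20 to 0.21, both negative without Control replicate 1 alone. Over the same fits AARS ran from -0.07 to 0.02, TARS from -0.13 to 0.08 and YAP1 from -0.03 to 0.05. The number of ATF4 pathway genes called lower ran from 1 to 2 over the same fits, and the number of genes called in all from 2411 (without YAP replicate 1) to 3606. With the replicate number as a block, 13 ATF4 pathway genes were called, 12 of them higher, and 10 synthetases, 1 of them higher. Members called in that fit but not in the main fit were ATF4, ATF3, DDIT3, SLC7A11, SLC3A2 and MARS, all higher. LARS, VARS and EPRS were added as lower. That fit called 5573 genes in all, against 3868 in the main fit. Deviations of same-numbered libraries correlated at -0.02, 0.59 and 0.60, and YAP replicate 1 correlated best with Control replicate 3 (0.14). YAP replicate 2 with Control replicate 3 gave -0.62, and YAP replicate 3 with Control replicate 2 gave -0.56. Deviations cancel within each group, so these values are not independent. They cannot settle whether same-numbered libraries share an effect, and the main fit did not use the numbers. The cause of these shifts was not tested. Each member rested on 201 or more reads per library, and each group on 3 libraries.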
